A study of Mus musculus with 6 samples.

Results

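The genes described here are 7 repair partners of AID, the deaminase that starts antibody gene mutation in germinal centre B cells. They are Ung, Msh6, Pms2, Exo1, Polh, Rev1 and Apex2. They were chosen by gene symbol, and each was read by its brightest probe set, the one with the highest mean over 6 arrays, with every other probe set of the gene beside it. That gave 7 of 18193 genes and 15 of the 34945 probe sets that the array annotation ties to exactly 1 gene. AID itself is not analysed here.

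Mice were immunised with sheep red blood cells, their splenic germinal centre B cells were enriched on magnetic beads, and Affymetrix mouse 430 2.0 arrays were hybridised with the labelled total RNA. The ImHABCL6/Uchl1 group (3 arrays, 1 mouse each) carried a Uchl1 transgene in addition to ImHABCL6, and the ImHABCL6 group (3 arrays, 1 mouse each) served as the control. ImHABCL6, which all 6 mice carried, is a tagged BCL6 expressed from an immunoglobulin heavy-chain promoter, so the controls also had deregulated BCL6 and were not wild type. The promoter of the Uchl1 transgene and the age, sex and strain of the mice are not stated in the labels. The comparison asked what Uchl1, a deubiquitinase abundant in neurons, does to gene expression in these cells.

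AID turns cytosine in immunoglobulin DNA into uracil, and the spectrum of mutations that follows depends on how the uracil is handled. The UNG glycosylase can remove it and leave an abasic site, which an AP endonuclease nicks or a translesion polymerase copies. Alternatively a MutS complex recognises the U:G mismatch, a MutL complex nicks the strand, exonuclease 1 opens a gap, and an error-prone polymerase fills it. Most cells use these same enzymes to remove damage faithfully, and many of the repair genes are most active in dividing cells.

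The promoters of Ung, of Msh6 and of Pms2 are shown because these genes stand for the glycosylase branch, for mismatch recognition and for strand nicking. They come from RefSeq (GRCm38.p6), whose promoter table matched 5 of the 7 genes, and run from 250 bases before to 50 bases after the start, 5′ to 3′. Capitals mark each match, on either strand, to an E2F word (TTTGGCGC, TTTCCCGC, TTTCGCGC or TTTGCCGC), to a CCAAT box (CCAAT) or to a GC box (GGGCGG). E2F factors drive genes of S phase entry, and the other motifs are common promoter elements.
Ung, chr5:114130185-114130484, plus strand: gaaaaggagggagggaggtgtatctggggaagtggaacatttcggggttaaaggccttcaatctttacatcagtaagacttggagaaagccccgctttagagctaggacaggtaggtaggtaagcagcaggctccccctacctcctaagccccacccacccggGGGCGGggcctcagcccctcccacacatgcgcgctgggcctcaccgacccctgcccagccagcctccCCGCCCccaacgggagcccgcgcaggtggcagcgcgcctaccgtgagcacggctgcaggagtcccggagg
Msh6, chr17:87974800-87975099, plus strand: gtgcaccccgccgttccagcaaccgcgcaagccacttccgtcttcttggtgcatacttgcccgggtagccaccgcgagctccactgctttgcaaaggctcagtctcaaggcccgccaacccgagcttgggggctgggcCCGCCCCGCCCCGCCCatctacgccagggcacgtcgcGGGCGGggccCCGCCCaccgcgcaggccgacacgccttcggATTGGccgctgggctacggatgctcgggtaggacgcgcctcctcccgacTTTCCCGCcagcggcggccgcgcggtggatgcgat
Pms2, chr5:143909751-143910050, plus strand: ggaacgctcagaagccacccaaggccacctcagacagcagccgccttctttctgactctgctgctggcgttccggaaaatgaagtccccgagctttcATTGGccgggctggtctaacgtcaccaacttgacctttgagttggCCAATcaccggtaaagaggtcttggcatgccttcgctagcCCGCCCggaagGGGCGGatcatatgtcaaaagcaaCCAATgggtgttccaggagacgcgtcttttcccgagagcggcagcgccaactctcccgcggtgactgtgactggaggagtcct

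Of these 5 promoters, only that of Msh6 held any of the 4 E2F words, 1 match, against 2.26% of all 32851 promoters in the table. CCAAT occurred in 2 of the 5, once in Msh6 and 3 times in Pms2, against 37.4% of all promoters. GGGCGG occurred in all 5, with 2 matches in Ung, 5 in Msh6 (some of which overlap), 2 in Pms2, 1 in Polh and 3 in Rev1, against 35.7% of all promoters. The 5 promoters had 58.3% (Pms2) to 83.0% (Rev1) G and C, and GC-rich sequence holds GGGCGG more often by composition. A match describes the letters of the window and not a bound site.

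None of the 7 genes passed the multiple-testing threshold between ImHABCL6/Uchl1 and ImHABCL6 cells. On the log2 scale, ImHABCL6/Uchl1 minus ImHABCL6, the glycosylase Ung differed by 0.057, the mismatch genes Msh6, Pms2 and Exo1 by -0.19, -0.17 and -0.28, and the polymerases Polh and Rev1 by 0.080 and -0.097. The endonuclease relative Apex2 had the largest difference of the 7, -0.47. The spread between ImHABCL6/Uchl1 mice was wider than that between controls for 6 of the 7 genes.

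The values are log2 expression levels made by RMA, so a difference of 1 is a 2-fold difference, and levels of different genes are not compared because probe sets differ in brightness. With limma's moderated test, 0 of 18193 genes had a Benjamini-Hochberg adjusted p under 0.05 (0.00% of genes), and the adjusted p of all 7 repair genes was 0.998. At an unadjusted limma p under 0.05 there were 0 of the 7 genes, where 4.94% of all genes lay. That count was 3 (Msh6, Exo1 and Apex2) without ImHABCL6/Uchl1 replicate 1, where 7.31% of all genes lay, and 1 (Apex2) without control replicate 1, where 5.01% did. Single genes were also compared by exact two-sided permutation tests, whose smallest possible p with 3 arrays against 3 is 0.1.

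**Figure D1:**
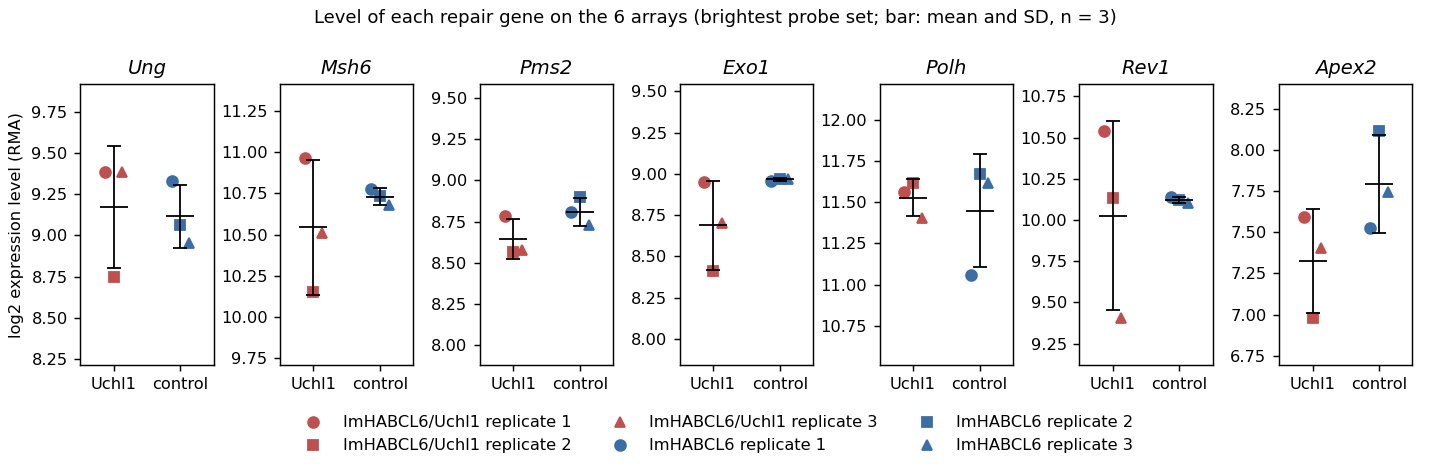
Level of each repair gene on the 6 arrays in log2 units, with ImHABCL6/Uchl1 arrays (red) left of ImHABCL6 controls (blue); symbols give the replicate, and black bars the mean and SD (n = 3 each). Every panel spans the same number of log2 units, and only for Exo1 do the groups not overlap, with 8.41 to 8.95 in ImHABCL6/Uchl1 cells and 8.96 to 8.97 in controls.

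In the glycosylase branch, Ung encodes the main uracil-DNA glycosylase and has 1 probe set. Its log2 level was 9.38, 8.75 and 9.39 in the ImHABCL6/Uchl1 arrays, against 9.33, 9.06 and 8.96 in the controls. The ImHABCL6/Uchl1 values enclosed all 3 controls, and replicate 2 was the lowest of the 6 arrays. The difference was 0.057 (SE 0.21, 95% interval -0.42 to 0.53, limma adjusted p = 0.998, exact permutation p = 0.8), and its sign turned when any 1 of 3 arrays was left out, to -0.050 without ImHABCL6/Uchl1 replicate 1, -0.050 without its replicate 3 and -0.023 without control replicate 3.

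Apex2, a relative of the main AP endonuclease that acts in antibody gene mutation in mice, read 7.59, 6.98 and 7.41 in the ImHABCL6/Uchl1 arrays, against 7.52, 8.11 and 7.74 in the controls. Only ImHABCL6/Uchl1 replicate 1 reached into the control range, just above control replicate 1. The means were 7.33 ± 0.32 and 7.79 ± 0.30 (SD, n = 3 each), a difference of -0.47 (SE 0.21, 95% interval -0.96 to 0.022, limma adjusted p = 0.998, unadjusted p = 0.0586, exact permutation p = 0.2). Its unadjusted p ranked 1041 among all genes. The difference rested in part on an array of each group, being -0.29 without ImHABCL6/Uchl1 replicate 2 and -0.31 without control replicate 2. The other Apex2 probe set (1425954_a_at) was dimmer and did not show it, at 6.01 ± 0.08 in ImHABCL6/Uchl1 and 5.97 ± 0.17 in control cells (SD, n = 3 each), and the mean of both probe sets differed by -0.21.

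In the mismatch branch, Msh6 encodes the MutS subunit that contacts the mismatched base. It read 10.97, 10.15 and 10.51 in the ImHABCL6/Uchl1 arrays, against 10.78, 10.73 and 10.68 in the controls. The controls spanned 0.099, and the ImHABCL6/Uchl1 arrays lay on both sides of them, with replicate 1 the highest of all 6 and replicate 2 the lowest. The difference of -0.19 (SE 0.20, 95% interval -0.66 to 0.28, limma adjusted p = 0.998, exact permutation p = 0.6) rested on ImHABCL6/Uchl1 replicate 2, and without it the difference was 0.0071.

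Pms2, the MutL subunit that carries the nicking activity, read 8.79, 8.57 and 8.58 in the ImHABCL6/Uchl1 arrays, against 8.81, 8.90 and 8.73 in the controls. The groups overlapped through ImHABCL6/Uchl1 replicate 1 and control replicate 3. The difference was -0.17 (SE 0.13, 95% interval -0.47 to 0.14, limma adjusted p = 0.998, exact permutation p = 0.2). Both other Pms2 probe sets averaged the opposite way, 0.073 for 1436273_at and 0.22 for 1432421_at, and the mean of all 3 gave 0.042.

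Exo1, the exonuclease that opens the gap behind the nick, was the 1 gene of the 7 whose groups did not overlap. It read 8.95, 8.41 and 8.70 in the ImHABCL6/Uchl1 arrays, against 8.96, 8.97 and 8.97 in the controls. ImHABCL6/Uchl1 replicate 1 lay 0.0072 below the lowest control, while the controls were nearly identical. The means were 8.69 ± 0.27 and 8.97 ± 0.01 (SD, n = 3 each), a difference of -0.28 or 1.21-fold (SE 0.16, 95% interval -0.65 to 0.090, limma adjusted p = 0.998, exact permutation p = 0.1). Over all genes, 5.49% had all ImHABCL6/Uchl1 arrays below all controls. All ImHABCL6/Uchl1 arrays lay above all controls for 0 of the 7 genes, where 3.95% of all genes did. The difference was -0.14 without ImHABCL6/Uchl1 replicate 2. It was smaller at the second Exo1 probe set, 1418027_at, with 7.41, 6.69 and 7.38 in ImHABCL6/Uchl1 against 7.34, 7.35 and 7.13 in control cells, where replicate 2 was again the low array and the groups overlapped. A further probe set, 1430225_at, stayed between 3.00 and 3.18 on all arrays, close to the lowest value in the data (2.16), and the mean of the 3 probe sets differed by -0.13.

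Among the gap-filling polymerases, Polh encodes polymerase eta, the source of most mutations at A:T pairs. Its brightest probe set (1447837_x_at) read 11.56, 11.62 and 11.41 in the ImHABCL6/Uchl1 arrays, against 11.06, 11.67 and 11.62 in the controls. Here the outlying array was a control, replicate 1, and the ImHABCL6/Uchl1 arrays were close together. The difference was 0.080 (SE 0.19, 95% interval -0.35 to 0.51, limma adjusted p = 0.998, exact permutation p = 1), and -0.12 without control replicate 1. Probe sets with the suffix x can bind related transcripts.

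The other Polh probe sets varied in their pattern. 1420988_at read 10.12, 8.80 and 9.26 in the ImHABCL6/Uchl1 arrays, against 9.37, 9.43 and 9.40 in the controls, the same layout as Msh6, with replicate 1 at the top and replicate 2 at the bottom. Its difference was -0.0071 (SE 0.30). 1450075_at read 8.70, 8.14 and 8.13 in the ImHABCL6/Uchl1 arrays, against 7.88, 8.30 and 8.25 in the controls, so control replicate 1 was lowest here as at the brightest probe set, and the difference was 0.18. 1459539_at differed by -0.029, and the groups overlapped at all 4 probe sets.

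Rev1 encodes a deoxycytidyl transferase that inserts C opposite abasic sites and serves as a platform for other translesion polymerases. It read 10.54, 10.13 and 9.41 in the ImHABCL6/Uchl1 arrays, against 10.14, 10.12 and 10.10 in the controls. The controls spanned 0.037, whereas ImHABCL6/Uchl1 replicate 1 was the highest and replicate 3 the lowest of the 6. The difference was -0.097 (SE 0.26, 95% interval -0.70 to 0.50, limma adjusted p = 0.998, exact permutation p = 0.9), and without ImHABCL6/Uchl1 replicate 3 it was 0.21.

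**Figure D2:**
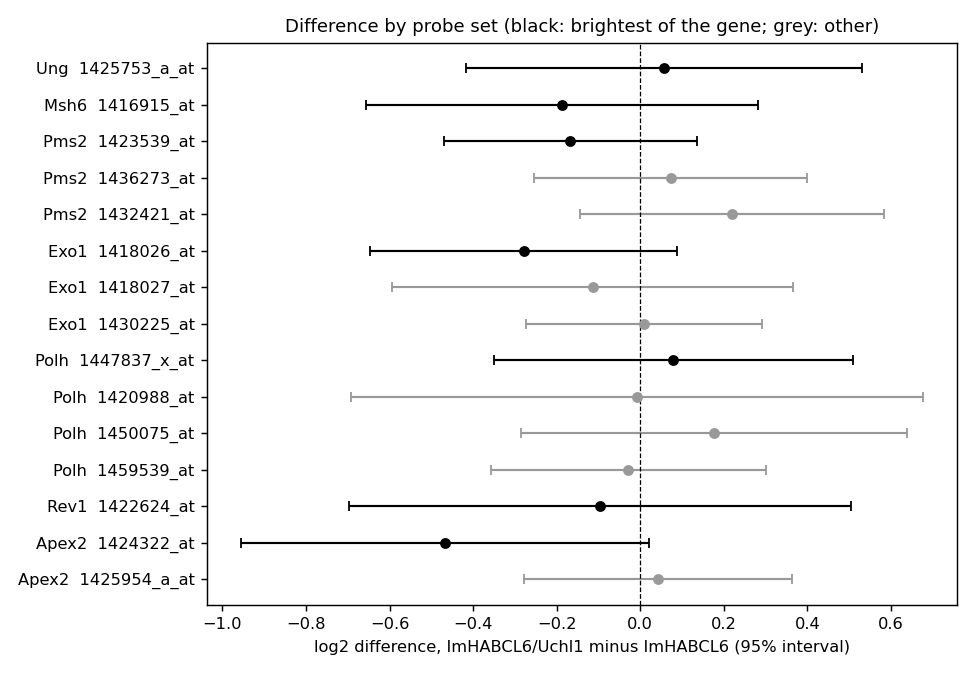
Log2 difference of every probe set of the 7 genes, ImHABCL6/Uchl1 minus ImHABCL6, with its 95% interval from limma; black marks the brightest probe set of each gene and grey the others. Of the 15 probe sets 8 lie left of 0 and 7 right, and every interval includes 0.

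Across the 15 probe sets, 8 averaged lower and 7 higher in ImHABCL6/Uchl1 cells, and in all 4 genes with more than 1 probe set the signs were mixed. In Exo1 the positive sign came only from 1430225_at (0.0095), which was close to the lowest value in the data, and both brighter probe sets averaged lower. When every named probe set was tested in 1 fit, the limma adjusted p of these 15 was 0.999, and 0 of the 34945 probe sets passed. With the brightest probe sets, 5 of the 7 genes averaged lower, where 49.4% of all genes did, and their median log2 difference was -0.17, beside 0.0029 over all genes. All 7 genes are above the median level, and of the 9097 genes at or above it 61.6% averaged lower, with a median of -0.057. With arrays centred on their medians 57.1% of all genes averaged lower. The 95% intervals, which are not adjusted for the number of genes, reached 0.60 on either side of the estimate for Rev1, the widest. Differences of that size were thus not detectable for every gene with 3 arrays per group. After adjustment over all genes larger ones could also fail, as Uchl1 itself differed by 0.94 (SE 0.12, limma adjusted p = 0.638).

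The spread between mice differed by group. The SD of the ImHABCL6/Uchl1 arrays exceeded that of the controls for 6 of the 7 genes, with Polh the exception, and for 69.4% of all genes. The median SD of the 7 genes was 0.32 in ImHABCL6/Uchl1 and 0.085 in control cells, beside 0.22 in ImHABCL6/Uchl1 and 0.15 in control cells over all genes. ImHABCL6/Uchl1 replicate 2 held the lowest value of 5 of the 7 genes (Ung, Msh6, Pms2, Exo1 and Apex2), and 28% of all genes were lowest there. Taken relative to each gene's 6-array mean, the 7 genes averaged 0.19, -0.26 and -0.15 on ImHABCL6/Uchl1 replicates 1, 2 and 3. The median over all genes, each taken relative to its own mean, was 0.011, -0.0056 and 3e-04 on these arrays.

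**Figure D3:**
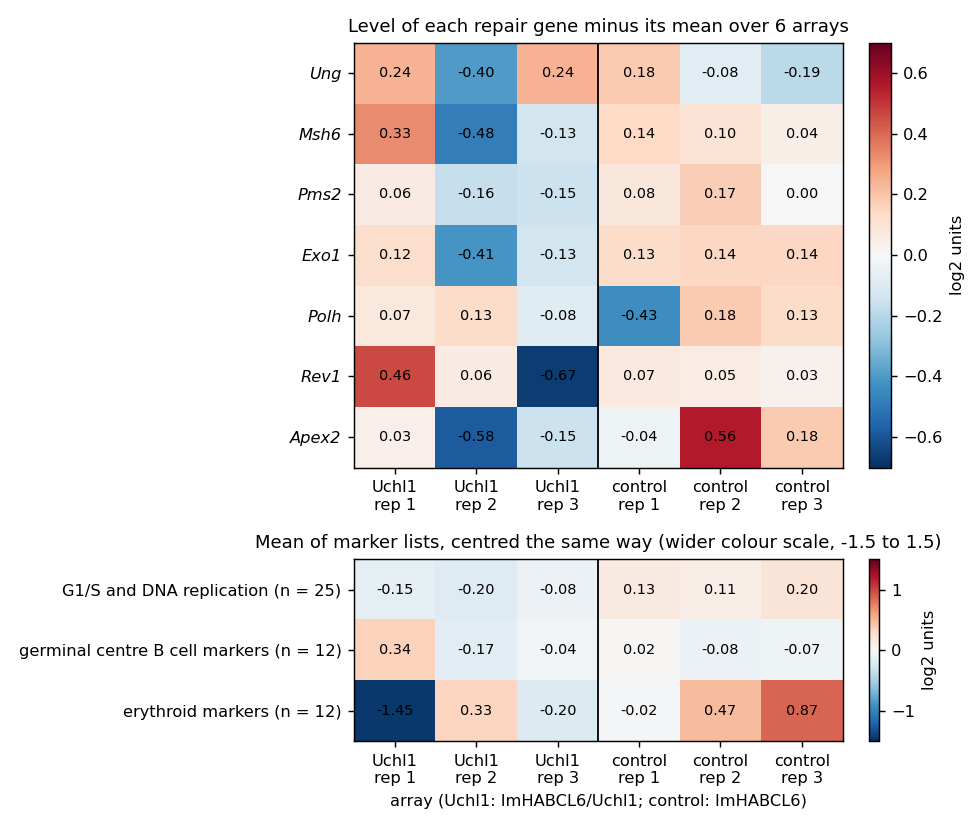
Level of each repair gene minus its own mean over the 6 arrays (upper panel, log2 units), with the means of 3 marker lists centred the same way (lower panel, on a wider colour scale); ImHABCL6/Uchl1 arrays are left of the line and ImHABCL6 controls right of it. Msh6, Exo1, Ung and Apex2 are lowest on ImHABCL6/Uchl1 replicate 2, at -0.58 to -0.40, and the erythroid mean is lowest on replicate 1, at -1.45.

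The mean of B cell markers followed this order in the ImHABCL6/Uchl1 arrays. The 12 measured markers of germinal centre and other B cells averaged 11.23, 10.72 and 10.84 in the ImHABCL6/Uchl1 arrays, against 10.90, 10.80 and 10.82 in the controls, so that ImHABCL6/Uchl1 replicate 1 was again highest and its replicate 2 lowest. The controls did not share this order. Their B cell mean was highest on replicate 1 and lowest on replicate 2, whereas their repair mean was lowest on replicate 1 (9.51) and highest on replicate 2 (9.65). Of these 12 markers, 10 were highest on ImHABCL6/Uchl1 replicate 1, as 22.6% of all genes were. On its replicate 2, 5 were lowest, among them the germinal centre genes Rgs13, S1pr2 and Gcsam, as 28% of all genes were. Mybl1 and Fas were instead lowest on ImHABCL6/Uchl1 replicate 3, and Bcl6 on control replicate 1. Bcl6 was bright on all arrays, at 11.38 ± 0.23 in ImHABCL6/Uchl1 and 11.14 ± 0.09 in control cells (SD, n = 3 each). The part of B-cell content in the repair values was not tested, and in bulk RNA fewer cells of a type and less RNA per cell cannot be told apart.

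Transcripts of red-cell precursors were also present. The 12 measured erythroid markers averaged 9.20, 10.98 and 10.45 in the ImHABCL6/Uchl1 arrays, against 10.62, 11.12 and 11.52 in the controls. Of the 12, 11 averaged lower with the transgene, where 49.4% of all genes did. All 12 were lowest on ImHABCL6/Uchl1 replicate 1, where 17.6% of all genes were lowest. The 1 that averaged higher, Hba-a1 (0.050), was dim, with a mean of 4.19. The defining genes Klf1 and Gata1 were well above the low end of the data, at 10.82 ± 0.99 and 8.66 ± 0.83 in ImHABCL6/Uchl1 and 12.12 ± 0.39 and 9.76 ± 0.31 in control cells (SD, n = 3 each). The T cell markers (5 measured) averaged 5.38 to 5.78 in ImHABCL6/Uchl1 and 5.50 to 5.66 in control arrays, and the myeloid markers (8 measured) 5.82 to 6.08 in ImHABCL6/Uchl1 and 5.38 to 6.24 in control arrays. Single myeloid markers were less even than their mean. On ImHABCL6/Uchl1 replicate 3, 3 of the 8 were highest, among them Lyz2 (10.55) and Csf1r (8.11), where 12.5% of all genes were highest. There 2 were lowest, S100a8 (4.76) and S100a9 (4.47), where 15% of all genes were lowest. The megakaryocyte and platelet markers (6 measured) averaged 7.32, 8.62 and 8.38 in the ImHABCL6/Uchl1 arrays, against 7.68, 8.57 and 8.01 in the controls. Their mean was lowest on ImHABCL6/Uchl1 replicate 1, where the mean of the repair genes was highest. Among the controls, by contrast, both means were lowest on replicate 1 and highest on replicate 2. The plasma cell markers (6 measured) averaged 8.55 to 8.77 in ImHABCL6/Uchl1 and 8.49 to 8.81 in control arrays. With the erythroid mean as a covariate the differences were -0.22 for Ung, -0.52 for Msh6, -0.27 for Pms2, -0.48 for Exo1, 0.19 for Polh, -0.35 for Rev1 and -0.64 for Apex2, with limma adjusted p from 0.307 to 0.667. The genotype labels were checked with Uchl1 itself, which read 5.96, 5.87 and 6.02 in the ImHABCL6/Uchl1 arrays, against 5.02 or less in each control. Its probe set was dim, below the median level of all genes (6.32) on every array. Uchl1 differed by 0.94 (SE 0.12, limma adjusted p = 0.638, exact permutation p = 0.1), so it did not pass the threshold either.

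The wider repair pathways were described by lists, and 0 genes of these lists passed over all genes in limma. Their counts stand beside 49.4% of all genes that averaged lower and 5.49% with all ImHABCL6/Uchl1 arrays below all controls. Leaving out 1 array changed the counts of genes that averaged lower, more in some lists than in others. The median level of each list lay above that of all genes. Of the genes at or above that median, 61.6% averaged lower, with a median difference of -0.057. Of 18 measured genes of uracil and base excision repair, 9 averaged lower and 9 higher with the transgene (median -0.019, and -0.18 without ImHABCL6/Uchl1 replicate 1), and 2 had all ImHABCL6/Uchl1 arrays below all controls. The smallest p in the list belonged to Neil3 (-0.48), a glycosylase of oxidised bases, the gap-filling polymerase Polb (-0.29), Dut (-0.25), which keeps dUTP out of DNA, and Mbd4 (0.24), a glycosylase of T:G and U:G mismatches. Their limma adjusted p was 0.998 each.

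Of 13 further genes of mismatch repair and its resynthesis step, 11 averaged lower, with a median of -0.14, and 4 had all ImHABCL6/Uchl1 arrays below all controls. The median was -0.0088, with 7 of 13 lower, without ImHABCL6/Uchl1 replicate 2. The 4 were Rfc4 (-0.42, SE 0.14), a clamp loader subunit, Pold3 (-0.30, SE 0.12) and Pold1 (-0.21, SE 0.13), subunits of polymerase delta, and the sliding clamp Pcna (-0.28, SE 0.13). Pcna read 13.43, 13.38 and 13.58 in the ImHABCL6/Uchl1 arrays, against 13.67, 13.79 and 13.76 in the controls. Ubiquitinated PCNA is what recruits polymerase eta and REV1. Limma adjusted p was 0.983 to 0.998 for these 4 genes, which also serve ordinary DNA replication.

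Of 16 further translesion genes, 11 averaged lower and 1 had groups apart in that direction. Their median was -0.11, and -0.024 without ImHABCL6/Uchl1 replicate 3 or -0.215 without its replicate 1. The smallest p belonged to Polk (-0.25), a Y-family polymerase, Shprh (-0.30), a ubiquitin ligase for PCNA, Ube2v2 (-0.26), a ubiquitin-conjugating cofactor, and Wdr48 (-0.18), the activator of the PCNA deubiquitinase USP1. Of 21 genes for proteins that bind, target or stabilise AID, 17 averaged lower, with a median of -0.056. Without ImHABCL6/Uchl1 replicate 2 only 9 of the 21 did (median 0.022), and with quantile normalization 10 (median 0.0062). The smallest p there was that of Dnaja1 (-0.58, SE 0.23), a chaperone that keeps cytoplasmic AID stable, which was also the 1 gene of the list with groups apart, followed by the exportin Xpo1 (-0.26) and the single-strand binding subunits Rpa3 (-0.27) and Rpa2 (-0.23). Of 19 genes of switch recombination and end joining, 16 averaged lower (median -0.22), and 12 did without ImHABCL6/Uchl1 replicate 2 (median -0.15). All ImHABCL6/Uchl1 arrays lay below all controls for 4 of the 19. The smallest p belonged to Trp53bp1 (-0.29), Mdc1 (-0.31), Nbn (-0.48) and Rnf168 (-0.27), which act at broken ends. Trp53bp1 and Rnf168 had groups apart, whereas the groups overlapped for Mdc1 and Nbn. The limma adjusted p of the named genes was 0.992 for Dnaja1 and 0.998 for the others.

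**Figure D4:**
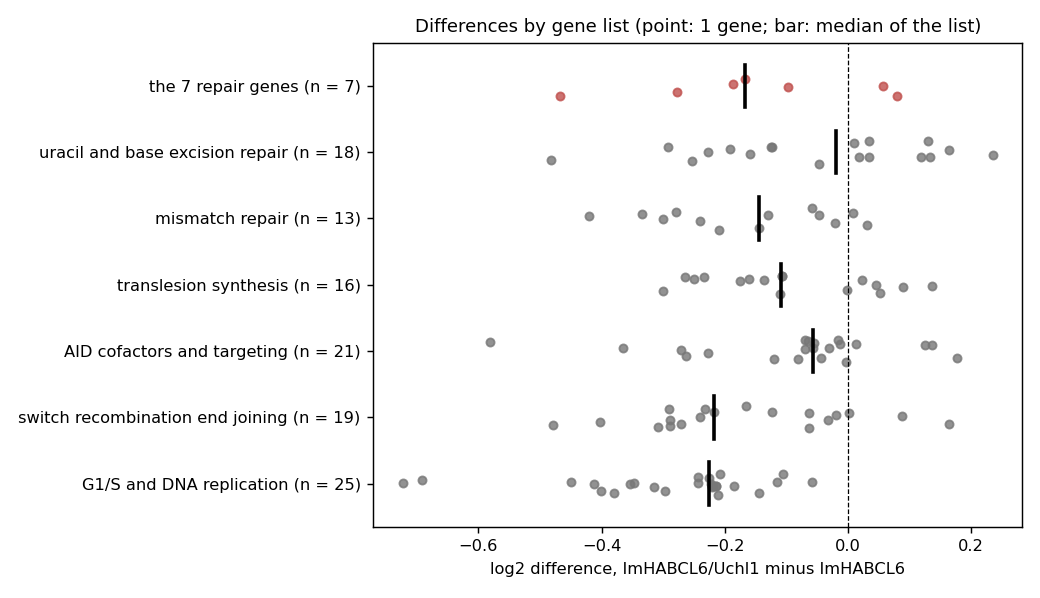
Log2 differences of single genes, ImHABCL6/Uchl1 minus ImHABCL6, for the 7 repair genes (red), 5 lists of related repair genes and a list of G1/S and replication genes (grey); the black bar is the median of each list. The 7 repair genes run from -0.47 to 0.080 and lie on both sides of 0, and all 25 G1/S genes lie below it.

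Genes of G1/S and DNA replication were set beside the repair genes because many repair enzymes are produced in S phase. All 25 measured averaged lower with the transgene, by a median of -0.23 and with values from -0.72 (Ccne2) to -0.059, and 15 of the 25 had all ImHABCL6/Uchl1 arrays below all controls, as 5.49% of all genes did. Their mean was 10.54, 10.49 and 10.61 in the ImHABCL6/Uchl1 arrays, against 10.82, 10.79 and 10.88 in the controls. The groups were apart there by more than the range within either, which was not so for the mean of the 7 repair genes, at 9.68, 9.23 and 9.34 in the ImHABCL6/Uchl1 arrays against 9.51, 9.65 and 9.54 in the controls. ImHABCL6/Uchl1 replicate 1 shows the contrast, being highest of all 6 arrays in the repair mean and below every control in the G1/S mean. Whether the repair genes differ in response from the G1/S genes was not tested.

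The members most alike over the 6 arrays were Msh6 and Exo1, whose profiles, each centred on its own mean, differed by a root mean square of 0.10 log2 units. Ung and Rev1 were least alike, at 0.44. Over 8821 named genes of above-median level, the nearest profiles to Msh6 were Cep170 (0.022) and Rad1 (0.026), to Exo1 Tra2b (0.018) and Gigyf2 (0.020), to Ung Nop2 (0.032) and Utp4 (0.033), and to Pms2 Ptgr2 (0.034) and Hmgxb4 (0.034). Those of Rev1 were Ppp1r12c (0.060) and Pced1a (0.069), of Apex2 Ormdl1 (0.083) and Nck1 (0.093), and of Polh Cbx2 (0.091) and Rnf145 (0.095). These are the closest of 8821 genes over 6 arrays, whose cell composition all genes share, and they describe these arrays only.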

How the data were processed

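The authors deposited a log2 level for each probe set on each array. Per the submitters' processing notes, RMA and Partek were used; no version, setting or detection call is stated in the labels. Values lay between 2.16 and 15.1, and array medians between 5.56 and 5.67. Probe sets were named by GEO's platform annotation, updated through Entrez identifiers with RefSeq (GRCm38.p6, 18145 of 18193 symbols matched, 0 changed). Each gene was represented by its brightest probe set, with no filter on dim ones. The test was limma's moderated one (version 3.58.1, R 4.3.3; lmFit and eBayes), with Benjamini-Hochberg adjustment over 18193 genes and a threshold of 0.05, and with exact two-sided permutation tests of single genes. The steps were run on simulated data with far larger differences than those of the 7 genes. That run does not measure how well differences of their size are detected. The genes and lists were chosen with earlier results of these data known, so none of them is independent support. Text names the 7 genes, up to 4 genes of smallest p per repair list, 2 nearest profiles per gene, and marker genes. The number of arrays, 3 per group, limits precision. Replicate numbers are not stated to pair mice, so the main test used no block. Same-numbered arrays of the groups did not all deviate together, which cannot settle whether mice were paired. Figures were drawn with matplotlib 3.10.9.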

Additional observations from a re-analysis of the deposited data

How the results depend on the processing

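In 15 alternatives (14 for Ung, which has only a suffixed probe set) 0 of the 7 genes and 0 genes in all had a limma adjusted p under 0.05; the lowest among the 7 was 0.238 (Apex2, array weights). Exo1 stayed between -0.48 and -0.13 and Apex2 between -0.64 and -0.21 in all 15. The other signs turned: Ung to -0.22 with the erythroid covariate, Pms2 to 0.042 with the mean of all probe sets, and Polh to -0.0071 without suffixed probe sets and -0.075 with array weights, which also put Rev1 at -0.52. An unadjusted p under 0.05 was reached by 3 of the 7 genes with array weights (Exo1, Rev1 and Apex2; 15.5% of all genes) and by 3 with the erythroid covariate (Msh6, Exo1 and Apex2; 15.1%). Leaving out 1 array at a time gave -0.050 to 0.27 for Ung, -0.40 to 0.0071 for Msh6, -0.12 to 0.19 for Polh and -0.35 to 0.21 for Rev1, a median of -0.35 to -0.12 for the 7 genes, -0.18 to 0.030 for base excision repair, -0.26 to -0.0088 for mismatch repair, -0.215 to -0.024 for translesion genes and -0.12 to 0.022 for AID cofactors, of which 11 of 21 averaged lower with array weights. The erythroid covariate moved list medians to -0.35 (7 genes), -0.20 (base excision), -0.32 (mismatch), -0.29 (translesion), -0.20 (AID cofactors) and -0.38 (end joining). End joining was at -0.070 with the mean of all probe sets, and G1/S at -0.36 without suffixed ones. The cause of these shifts was not tested. With the replicate number as a block, 0 genes passed and the differences were those without it, for example -0.47 for Apex2 (adjusted p = 0.998); deviations of same-numbered arrays correlated at 0.43, 0.19 and -0.26 over genes, and of the ImHABCL6/Uchl1 arrays only replicate 1 correlated best with its own number, of the controls replicates 1 and 2.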
